A study of Homo sapiens with 4 samples.

Results

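Cyclins E1, E2, A2, B1, B2 and F, the kinases CDK1 and CDK2 and the phosphatase CDC25A drive and time the passage of a cell through S phase and mitosis. They were taken by their symbols CCNE1, CCNE2, CCNA2, CCNB1, CCNB2, CCNF, CDK1, CDK2 and CDC25A. All 9 were listed in each of the 4 expression tables of the series, which held 27629 genes between them. The cells were of the human line UM-UC-3, established from a bladder cancer, 48 h after transfection with 75 nM siRNA, and total RNA was sequenced with 100-base paired-end reads. The control cells received a control siRNA. The other cells received a mixture of 2 siRNAs against hnRNPK, against the long non-coding RNA lncRNA-LBCS, or against PTBP1. hnRNPK and PTBP1 are RNA-binding proteins, and PTBP1 is a well-known repressor of exon inclusion. Each condition was 1 library, so no difference between conditions has a replicate check and no p-value is given.

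Cyclins act by binding a cyclin-dependent kinase, which has little activity without them. Cyclins E1 and E2 bind CDK2 at the entry into S phase, cyclin A2 binds CDK2 during S phase and also CDK1 later, and cyclins B1 and B2 bind CDK1 and bring the cell into mitosis. CDC25A removes inhibitory phosphates from both kinases, and cyclin F binds no kinase but serves as the substrate receptor of an SCF ubiquitin ligase. The messages of the A and B cyclins, CDK1 and CCNF are highest late in the cycle. Their level in a culture therefore depends on which phases its cells are in, and fewer cells in a phase cannot be told apart from less RNA per cell in data from whole cultures.

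Levels are given in CPM, in which the reads of each gene are brought to the same total in every library, and 1 read was worth 0.0163 CPM in control. The libraries held between 54301152 and 70232674 reads on listed genes. Gene positions are those of GENCODE release 29 on GRCh38. HNRNPK was at 783.1 CPM in control and 187.8 CPM in si-hnRNPK, which was 24.0% of control (95% interval 23.5 to 24.5). PTBP1 was at 280.0 CPM in control and 89.7 CPM in si-PTBP1, or 32.0% of control (31.0 to 33.1). The target RNA of si-lncRNA-LBCS had 110 reads in control and 103 reads in the library with that label, or 81.8% of control (61.9 to 108.0). That was the lowest level of the 4 libraries (1.47 CPM, against 1.79 in control, 3.43 in si-hnRNPK and 3.82 in si-PTBP1), but the interval includes 100%. The submitters' labels give qPCR values relative to control of 0.13 for this knockdown, 0.08 for si-hnRNPK and 0.1 for si-PTBP1. For each knockdown the interval of the reads lies above the value of its label. Since only the lncRNA-LBCS interval includes 100%, the library with that label is called the si-lncRNA-LBCS-labelled library throughout. The intervals follow from the read numbers of the 2 libraries by the exact Clopper-Pearson method. Only counting error is in them, and each read is treated as independent. PCR reads without molecular identifiers are not independent molecules, so the intervals may be too narrow. Of the urothelial marker list, 9 of 10 genes were listed with a summed level of 5.36 to 11.1 CPM, and GATA3 and the uroplakins UPK1A, UPK1B and UPK2 were close to 0 in each library. Of the epithelial marker list, 5 of 6 genes were listed, and CDH1 was not. KRT8 and KRT18 (63.0 and 121.4 CPM in control) were well expressed, whereas KRT7 was at 2.85 CPM and KRT19 at 0.0978 CPM in control. EPCAM was listed only in si-PTBP1, at 0.0178 CPM. The mesenchymal marker VIM (2343 CPM in control) was well expressed. Leukocyte markers were listed for 2 of 7 genes, with a sum of at most 0.125 CPM. Endothelial and fibroblast markers were listed for 5 of 7 genes and summed to between 0.897 and 4.42 CPM, highest in si-PTBP1. COL1A1 of that list rose by 1.21 in si-PTBP1, to 2.25 CPM. Of 4 mesenchymal markers, FN1 rose by 1.70 under si-hnRNPK and 1.87 under si-PTBP1. CDH2 was at 0.73 and 0.60, VIM at -0.46 and -0.51 and ZEB1 at -0.02 and 0.26. Of the urothelial markers, TP63 rose by 1.38 and 1.33, from a low level of 0.34 CPM in control. PPARG was at 0.51 and 0.89 and FOXA1 at -0.05 and 0.20. The part of these markers in the results was not tested.

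The 9 genes together took 970.5 CPM in control, 497.1 CPM in si-hnRNPK, 1016 CPM in the si-lncRNA-LBCS-labelled library and 824.1 CPM in si-PTBP1. These sums were 51.2%, 104.7% and 84.9% of control. Read per kilobase of exon, by which the genes were ranked, CCNB1 led the control library with 83.8 CPM per kb. The length is that of all annotated exons of a gene together. It includes bases shared with other genes, such as 1629 of CCNE2. How reads of shared bases were counted is not known, so ranks of genes at similar values may depend on it. CCNA2 followed with 69.0, CCNB2 with 55.6 and CDK1 with 40.6 CPM per kb. CDK2 stood at 18.7, CCNF at 11.5, CCNE1 at 10.9, CDC25A at 9.13 and CCNE2 at 8.39 CPM per kb. On these lengths the mitotic cyclins and CDK1 were thus the highest messages of the group, and the E cyclins and CDC25A the lowest. CCNA2 ranked below CCNB2 in si-hnRNPK (26.8 against 27.7 CPM per kb) and in si-PTBP1 (36.6 against 51.3). CCNE1 (9.88) ranked above CCNF (5.24) in si-hnRNPK.

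**Figure D1:**
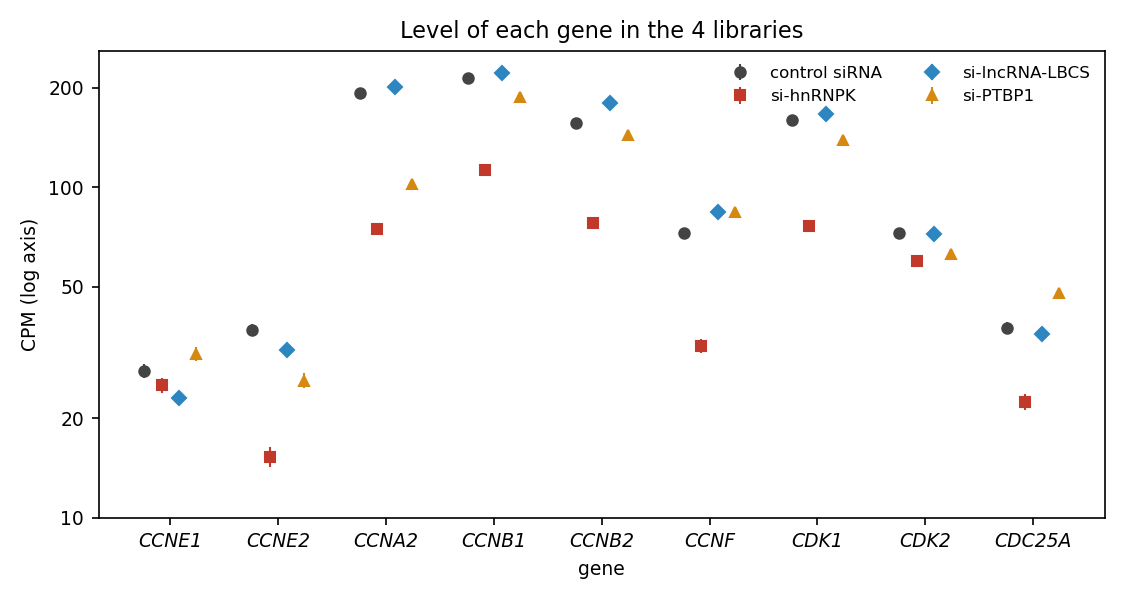
Level of each of the 9 genes in CPM (log axis) in the 4 libraries, 1 library per condition, with bars for exact 95% Poisson intervals of the reads. si-hnRNPK is the lowest library for 8 of the 9 genes, and for CCNE1 the si-lncRNA-LBCS-labelled library is the lowest.

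Changes against control are differences in log2(CPM + 1), and a gene counts as fallen or risen when it passes 1 on that scale, about a 2-fold change. Under si-hnRNPK, 4 of the 9 genes fell: CCNE2, CCNA2, CCNF and CDK1. Over all genes tested the percentage past the threshold downward was 3.93% (537 of 13672). The median change of the 9 genes was -0.996 (range -1.35 to -0.14), beside -0.11 over all genes tested. All 9 were below control, as were 58.4% of all genes tested. Relative to the median of all genes, the median of the 9 was -0.89 under si-hnRNPK and -0.32 under si-PTBP1. On that scale CCNE1 was at -0.03, CDK1 at -0.95 and CCNF at -1.01 under si-hnRNPK. In the si-lncRNA-LBCS-labelled library, 0 of 9 fell, with 1.01% of all genes past the threshold. Under si-PTBP1, 0 of 9 fell, with 0.613% of all genes past it.

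**Figure D2:**
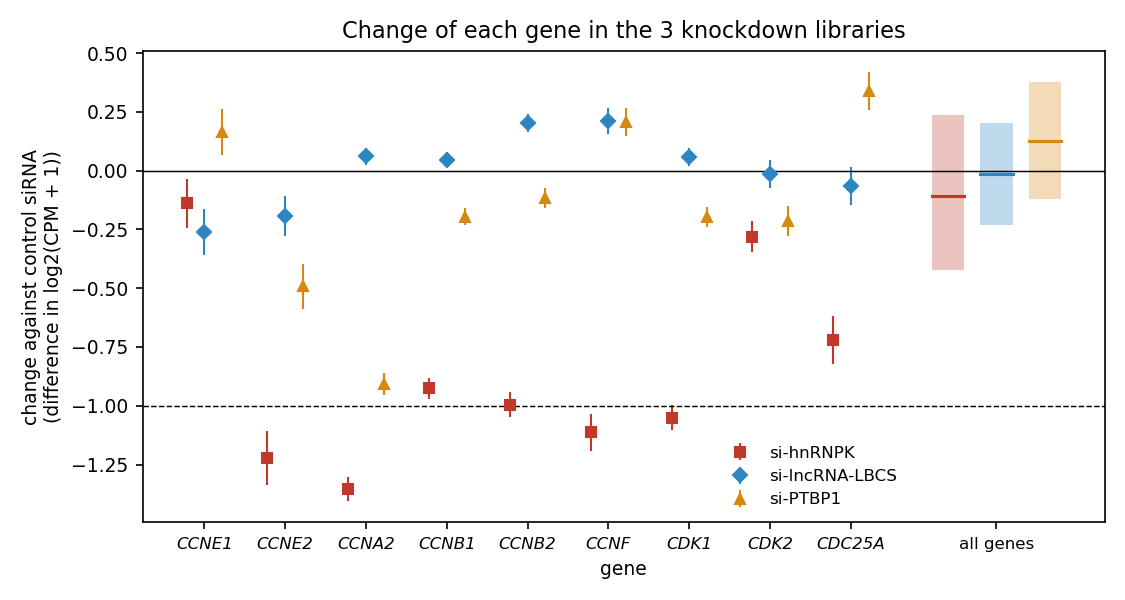
Difference in log2(CPM + 1) from control siRNA for each of the 9 genes in the 3 comparisons, with bars for 95% counting intervals and a dashed line at -1. At the right, shaded boxes span the quartiles of all genes tested in each comparison, with a line at the median. The si-hnRNPK values run from -0.14 for CCNE1 to -1.35 for CCNA2, whereas those of the si-lncRNA-LBCS-labelled library lie between -0.26 and 0.21.

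The E cyclins responded unequally to si-hnRNPK. CCNE1 (ENSG00000105173; chromosome 19, 29811898 to 29824308, plus strand) was at 27.8 CPM in control, 25.2 in si-hnRNPK, 23.1 in the si-lncRNA-LBCS-labelled library and 31.3 in si-PTBP1. Each library differed from the next in level beyond counting error, though the values spanned a narrower range than those of CCNE2. The change of CCNE1 under si-hnRNPK was -0.14, or 90.5% of control (84.2 to 97.2). CCNE2 was at 36.9 CPM in control, 15.2 in si-hnRNPK, 32.2 in the si-lncRNA-LBCS-labelled library and 26.0 in si-PTBP1. Here the si-hnRNPK library stood apart from the other libraries, and the change was -1.22, or 41.3% of control (38.1 to 44.8). Only 1.62% of all genes tested had a lower change than CCNE2, whereas 46.8% had a lower change than CCNE1.

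CCNE2 (ENSG00000175305) spans 94879770 to 94896678 on the minus strand of chromosome 8 and shares 1629 exonic bases with INTS8, a gene on the other strand. Whether reads were counted by strand is not given in the sources used here, so reads of this stretch cannot be told apart. INTS8 was at 111.2 CPM in control, 115.6 in si-hnRNPK, 139.1 in the si-lncRNA-LBCS-labelled library and 111.7 in si-PTBP1. It was thus not lower in si-hnRNPK, where CCNE2 was lowest.

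CCNA2, the main A cyclin of dividing somatic cells, had the lowest change of the 9 genes under si-hnRNPK. The gene is ENSG00000145386 (chromosome 4, 121816444 to 121823933, minus strand). Its level was 193.0 CPM in control, 74.9 in si-hnRNPK, 201.4 in the si-lncRNA-LBCS-labelled library and 102.4 in si-PTBP1. The si-hnRNPK and si-PTBP1 libraries were both low, and the other libraries were high and close to each other. The changes were -1.35 under si-hnRNPK (38.8% of control, 37.5 to 40.2) and -0.91 under si-PTBP1 (53.1%, 51.4 to 54.8). Relative to the median of all genes the si-PTBP1 change of CCNA2 was -1.03. In each of these comparisons under 1% of all genes tested were lower than CCNA2, with 0.892% under si-hnRNPK and 0.888% under si-PTBP1. CCNA2 shares 254 exonic bases with EXOSC9, an exosome subunit on the other strand, which was at 73.1, 42.1, 60.04 and 59.0 CPM in the same order of libraries. EXOSC9 was thus also lower in si-hnRNPK, with a change of -0.78, and reads of the shared stretch cannot be told apart. The germline relative CCNA1 was at 4.04 CPM in control and 1.55 CPM in si-hnRNPK, a change of -0.98. CCNO, another relative at a low level, was at 1.78 and 1.05 CPM, and neither of these relatives passed the threshold. The CPM of CCNA1 itself was lower by more than 2-fold, since the added 1 shrinks changes at low levels.

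The B cyclins were lower by similar amounts under si-hnRNPK, and neither passed the threshold. CCNB1 (ENSG00000134057; chromosome 5, 69167010 to 69178245, plus strand) was at 214.4 CPM in control, 112.4 in si-hnRNPK, 221.6 in the si-lncRNA-LBCS-labelled library and 187.2 in si-PTBP1. CCNB2 (ENSG00000157456; chromosome 15, 59105078 to 59125045, plus strand) was at 155.8 CPM in control, 77.7 in si-hnRNPK, 179.6 in the si-lncRNA-LBCS-labelled library and 143.7 in si-PTBP1. For both, si-hnRNPK was the only library far below the rest. The changes were -0.93 for CCNB1 (52.4% of control, 50.9 to 54.1) and -0.996 for CCNB2 (49.8%, 48.0 to 51.7), which put CCNB2 just short of the threshold. A processed pseudogene of CCNB2 exists, and reads it may share with CCNB2 cannot be told apart.

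CCNF, the F-box cyclin that gave the F-box its name, fell under si-hnRNPK alone of the 3 comparisons. The gene is ENSG00000162063 (chromosome 16, 2429394 to 2458854, plus strand). It was at 72.7 CPM in control, 33.1 in si-hnRNPK, 84.4 in the si-lncRNA-LBCS-labelled library and 84.1 in si-PTBP1. The si-hnRNPK change was -1.11 (45.5% of control, 43.0 to 48.1), and the other libraries were both slightly above control with changes of 0.21. Genes on the other strand share 219 and 527 exonic bases with CCNF. The former was at most at 0.310 CPM, the latter is not analysed here, and reads of these stretches cannot be told apart.

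CDK1 and CDK2, close relatives with largely shared cyclin partners, differed under si-hnRNPK. CDK1 (ENSG00000170312; chromosome 10, 60778331 to 60794852, plus strand) was at 159.4 CPM in control, 76.4 in si-hnRNPK, 165.9 in the si-lncRNA-LBCS-labelled library and 139.0 in si-PTBP1. The si-hnRNPK change was -1.05, or 47.9% of control (46.2 to 49.7). CDK2 (ENSG00000123374; chromosome 12, 55966769 to 55972784, plus strand) was at 72.8 CPM in control, 59.8 in si-hnRNPK, 72.1 in the si-lncRNA-LBCS-labelled library and 62.7 in si-PTBP1. Its values varied little, and the si-hnRNPK change was -0.28 (82.0% of control, 78.4 to 85.9). CDK2 shares 89 exonic bases with PMEL, which was at most at 0.221 CPM, and 565 with an antisense gene that is not analysed here.

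CDC25A lay on different sides of control in the 2 knockdowns of RNA-binding proteins. The gene is ENSG00000164045 (chromosome 3, 48157146 to 48188402, minus strand). It was at 37.6 CPM in control, 22.4 in si-hnRNPK, 35.9 in the si-lncRNA-LBCS-labelled library and 47.8 in si-PTBP1. The change was -0.72 under si-hnRNPK (59.6% of control, 55.6 to 64.0) and 0.34 under si-PTBP1 (127.1%, 120.2 to 134.4). Neither passed the threshold.

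Under si-PTBP1 the 9 genes lay on both sides of control. The median change was -0.19 beside 0.12 over all genes tested, and it was 0.13 when the 3 libraries other than si-PTBP1 were averaged geometrically as the reference. Below control were 6 of the 9 genes, beside 36.5% of all genes tested, and 5 lay below the lower quartile of all genes (-0.12). After CCNA2, the lowest change was that of CCNE2 at -0.49 (70.4% of control, 65.8 to 75.2). The changes of CCNB1, CCNB2, CDK1 and CDK2 lay between -0.21 and -0.12. CCNE1, CCNF and CDC25A were above control with changes of 0.16, 0.21 and 0.34. In the si-lncRNA-LBCS-labelled library the median change was 0.05, and the counting intervals of CDK2 and CDC25A included the control level.

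The si-hnRNPK library can also be set directly against the other knockdowns, without the control library. Against si-PTBP1 all 9 genes were lower in si-hnRNPK, as were 69.6% of all genes tested, with a median of -0.73 beside -0.24 over all genes. The differences were -1.32 for CCNF and -1.06 for CDC25A, and the interval of CDK2 reached the si-PTBP1 level. Against the si-lncRNA-LBCS-labelled library, 8 of 9 were lower, beside 58.9% of all genes tested, with a median of -1.03 beside -0.09. The exception was CCNE1, which was at 109.2% of that library (101.5 to 117.4). Neighbouring libraries that did not differ beyond counting error were the si-lncRNA-LBCS-labelled library and si-PTBP1 for CCNF, control and the si-lncRNA-LBCS-labelled library for CDK2 and CDC25A, and si-PTBP1 and si-hnRNPK for CDK2.

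Within pairs of related genes, the share of reads shows which member carries the message in each library. CCNE1 held 43.0% of the E cyclin reads in control (41.5 to 44.6), 62.3% in si-hnRNPK (60.2 to 64.3), 41.8% in the si-lncRNA-LBCS-labelled library (40.2 to 43.3) and 54.7% in si-PTBP1 (52.9 to 56.4). CCNE1 thus held a larger part in si-hnRNPK and si-PTBP1 than in the other libraries. Read per kilobase of exon, its share was 56.5%, 74.0%, 55.3% and 67.5% in the same order, so that CCNE1 led CCNE2 in each library on that scale. The exon length of CCNE2 includes the 1629 bases shared with INTS8. How reads of that stretch were counted is not known, and this order may depend on it. The difference between the log2 changes of CCNE1 and CCNE2 was 1.13 under si-hnRNPK (0.98 to 1.28) and 0.68 under si-PTBP1 (0.54 to 0.81). It was -0.07 in the si-lncRNA-LBCS-labelled library, with an interval of -0.20 to 0.06 that includes 0.

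CDK1 held 68.6% of the reads of CDK1 and CDK2 in control, 56.1% in si-hnRNPK (55.0 to 57.3), 69.7% in the si-lncRNA-LBCS-labelled library and 68.9% in si-PTBP1. Only si-hnRNPK stood apart, and the difference between the log2 changes of CDK1 and CDK2 was -0.78 there (-0.86 to -0.69) and 0.02 under si-PTBP1 (-0.06 to 0.10). The share of CCNB1 in the B cyclin reads was nearly level, with 57.9%, 59.1%, 55.2% and 56.6% in the same order of libraries. CCNA2 and CCNB1, a pair chosen after their values were seen, differed more under si-PTBP1 than under si-hnRNPK. The difference of their log2 changes was -0.72 under si-PTBP1 (-0.78 to -0.66) and -0.43 under si-hnRNPK (-0.50 to -0.37).

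**Figure D3:**
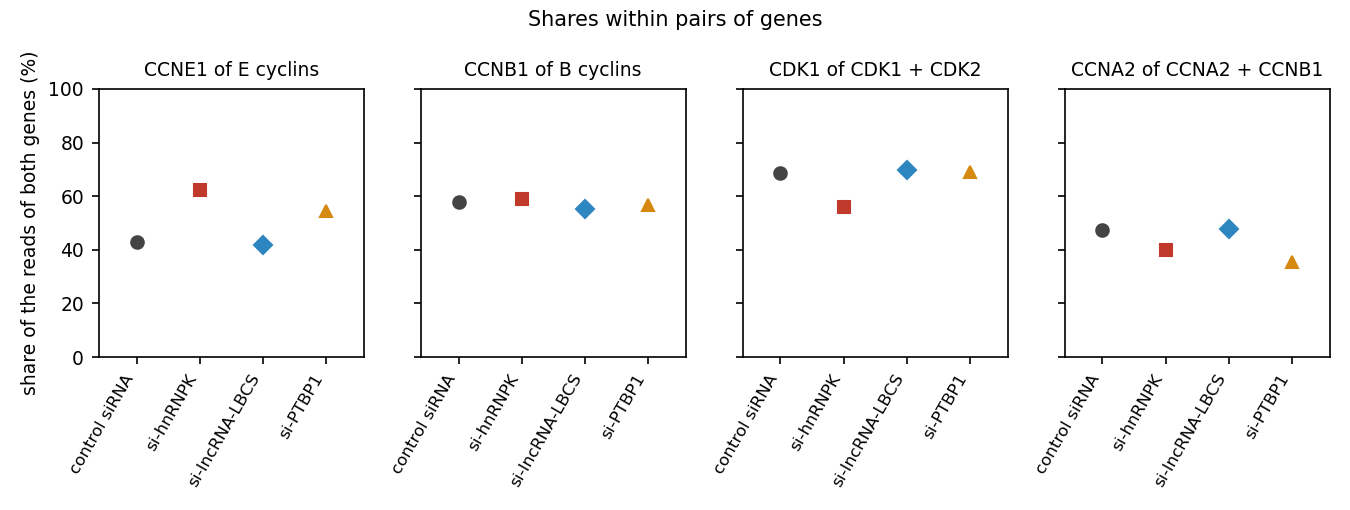
Share of reads, in percent, of CCNE1 among the E cyclins, CCNB1 among the B cyclins, CDK1 among CDK1 and CDK2, and CCNA2 among CCNA2 and CCNB1 in the 4 libraries, with 95% exact binomial intervals. CCNE1 holds 43.0% of E cyclin reads in control and 62.3% in si-hnRNPK, while CCNB1 lies between 55.2% and 59.1% of B cyclin reads.

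The promoters of several of the 9 genes are known for CHR and CCAAT elements, through which DREAM and MuvB complexes and NF-Y act, or for E2F sites. The 150 bases before the start of 5 of them are shown so that these letters can be read beside the changes (RefSeq, GRCh38.p14, each in the direction of its gene). Capitals mark the CHR word TTTGAA, the CCAAT box CCAAT and the E2F words TTTCCCGC, TTTCGCGC, TTTGCCGC and TTTGGCGC, on either strand. No word contains another, though a GC box can share letters with a CCAAT box, as in CCNB2. The words were chosen after the values were seen.
CCNA2, chr4:121823884-121824033, minus strand: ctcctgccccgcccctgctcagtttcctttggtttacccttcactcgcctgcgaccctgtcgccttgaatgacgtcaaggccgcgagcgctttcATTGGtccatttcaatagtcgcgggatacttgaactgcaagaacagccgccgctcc
CCNB2, chr15:59104996-59105145, plus strand: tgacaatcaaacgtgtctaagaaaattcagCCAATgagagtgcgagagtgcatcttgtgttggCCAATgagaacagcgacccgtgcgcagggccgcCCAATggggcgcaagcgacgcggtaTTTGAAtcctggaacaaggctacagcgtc
CCNF, chr16:2429297-2429446, plus strand: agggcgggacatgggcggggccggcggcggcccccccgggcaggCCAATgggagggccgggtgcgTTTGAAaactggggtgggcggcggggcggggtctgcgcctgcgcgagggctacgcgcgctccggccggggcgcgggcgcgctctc
CDK1, downstream start, chr10:60778328-60778477, plus strand: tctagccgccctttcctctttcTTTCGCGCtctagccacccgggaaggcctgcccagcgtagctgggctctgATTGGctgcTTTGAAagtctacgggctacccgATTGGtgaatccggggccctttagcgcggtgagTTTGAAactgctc
CCNE1, chr19:29811841-29811990, plus strand: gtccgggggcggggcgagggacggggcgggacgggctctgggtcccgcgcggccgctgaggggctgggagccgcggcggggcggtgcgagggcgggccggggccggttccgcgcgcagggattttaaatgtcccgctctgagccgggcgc

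CCNE1, whose change under si-hnRNPK was closest to 0, had none of the CHR, CCAAT or E2F words in its 300-base promoter and 7 GC boxes (GGGCGG). CCNB2 and CCNF, at -0.996 and -1.11, each held 1 CHR word and 4 CCAAT boxes, and the downstream start of CDK1, at -1.05, held 3 CHR words, 2 CCAAT boxes and 1 E2F word. CCNA2, with the lowest change, held 1 CCAAT box and no exact CHR word, and CCNB1 held 2 CCAAT boxes and no CHR word. CDC25A held 2 CCAAT boxes and 1 E2F word, and the upstream start of CDK1 held 1 of each of the 3 kinds. The windows of the CDK1 starts overlap and hold the same E2F word. CCNE2 and CDK2 are named only. Over all 35116 RefSeq promoters of the same length, TTTGAA was found in 15.2%, CCAAT in 34.6%, both in 5.90%, an E2F word in 3.31% and GGGCGG in 45.0%. These are matches of letters, and their part in the changes was not tested.

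**Figure D4:**
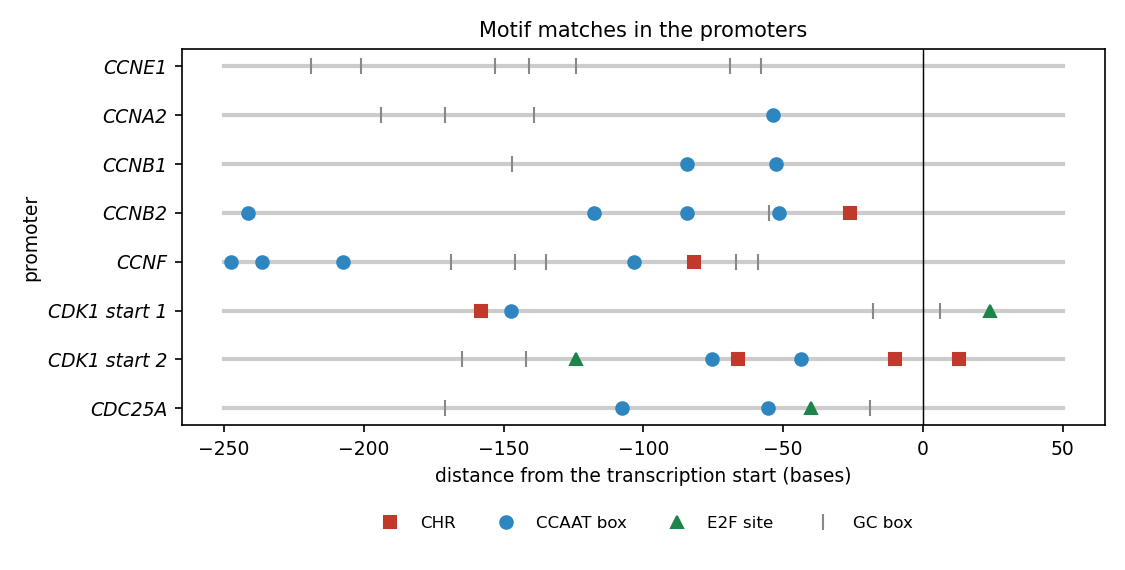
Position of exact motif words relative to the start of transcription, in bases, in the promoters of the genes for which sequence was used, with CDK1 drawn for 2 starts. Both CHR and CCAAT words lie before the starts of CCNB2, CCNF and CDK1, and CCNE1 holds GC boxes only.

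The siRNAs themselves can pair with other messages through the seed of their guide strand, which is bases 2 to 8. When the longest 3′ UTR of each gene was searched, the control siRNA and the siRNAs of the si-lncRNA-LBCS-labelled library had a perfect seed match in 0 of the 9 genes. Over all 3′ UTRs searched, the control siRNA had a match in 2.69%, and those of that library in 7.82% and 16.4%. The second si-hnRNPK siRNA, whose seed match was present in 17.6% of all 3′ UTRs searched, had a match in CCNB2. The first si-hnRNPK siRNA (9.59% of all 3′ UTRs) had none. The first si-PTBP1 siRNA had a match in CCNE1 and CCNA2, and the second (13.6% of all 3′ UTRs) in CCNF. The first si-PTBP1 siRNA (sense strand) is shown with its CCNA2 and CCNE1 sites, because these genes lay on different sides of control under si-PTBP1. Capitals mark the seed match.
si-PTBP1 siRNA 1: gccucaacgucAAGUACAatt
CCNA2 site, chr4:121817517-121817535, minus strand: aagttgtggccAAGTACAa
CCNE1 site, chr19:29823972-29823990, plus strand: ataagtgggtcAAGTACAc

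Of the 19 bases that pair in the siRNA duplex, 11 were matched at the CCNA2 site and 10 at the CCNE1 site. The same seed match was present in 11.3% of 19126 3′ UTRs. CCNA2 was at 53.1% of control and CCNE1 at 112.5% in si-PTBP1, and the part of seed pairing in these levels was not tested.

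Other genes of the same machinery were read from lists. Beside the counts of fallen genes, 3.93% of all genes tested (537 of 13672) fell under si-hnRNPK. Of 11 CDK activators and subunits, 4 fell under si-hnRNPK, with a list median of -0.83. These were the mitotic kinases PLK1 (74.0 to 20.6 CPM, -1.80) and AURKA (191.4 to 74.4 CPM, -1.35), the phosphatase CDC25C (-1.09) and MASTL (-1.02), a kinase that restrains the phosphatase opposing CDK1. The small CDK subunits CKS2 and CKS1B did not pass, at -0.66 and -0.67. None of 5 CDK inhibitors and inhibitory kinases fell, and the inhibitors CDKN1A and CDKN1B had changes of -0.17 and -0.05. The inhibitory kinase PKMYT1 was just short of the threshold at -0.98 (20.8 to 10.1 CPM).

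Of 22 regulators of cyclin gene transcription, 6 fell under si-hnRNPK, beside 3.93% of all genes tested, and the list median was -0.44. FOXM1, an activator of G2/M genes, was at 102.1 CPM in control and 29.5 CPM in si-hnRNPK, a change of -1.76. MYBL2 (-1.05) and LIN9 (-1.06) act with the MuvB complex, E2F2 (-1.22) is an E2F activator, and E2F7 (-1.06) and E2F8 (-1.40) are E2F repressors. Activators and repressors were therefore both among the genes that fell. TFDP1 and RB1, at -0.40 and -0.35, did not pass.

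Cyclins are destroyed through the APC/C and SCF ubiquitin ligases. The counts that follow are for si-hnRNPK, where 3.93% of all genes tested fell. Of 18 APC/C subunits and partners, 2 fell: the activator CDC20 (362.4 to 167.2 CPM, -1.11) and the ubiquitin-conjugating enzyme UBE2C (-1.17). The list median was -0.16, and UBE2S (-0.75) and ANAPC5 (0.04) did not pass. Of 8 SCF ligase genes and regulators, FBXO5, an APC/C inhibitor, fell by 1.01, and SKP1 (0.18) and CUL1 (-0.36) did not pass. Of 6 substrates of the cyclin F ligase, 3 fell: RRM2 (-1.31), a ribonucleotide reductase subunit, CDC6 (-1.26), a replication licensing factor, and NUSAP1 (-1.29), a spindle protein. SLBP (-0.31) and EXO1 (-0.80) did not pass, and the list median was -1.04.

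Cyclins and CDKs with roles in transcription or other processes gave the comparison within the families. Of 12 such cyclins, 0 fell under si-hnRNPK, beside 3.93% of all genes tested. The median was -0.004, with CCNK just short of the threshold at -0.997 and CCNG1 and CCNL1 at 0.54 and 0.03. Of 12 such CDKs tested, 0 fell and the median was -0.19, with CDK17 and CDK12 at 0.23 and -0.22. In the si-lncRNA-LBCS-labelled library and in si-PTBP1, 0 genes of these lists fell, beside 1.01% and 0.613% of all genes tested. The risen genes were CDK14 (1.03) in the si-lncRNA-LBCS-labelled library and the CDK inhibitor CDKN1C (1.14, from 2.79 to 7.35 CPM) in si-PTBP1. The share of all genes past the threshold upward is not given here, so these rises have no background beside them.

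**Figure D5:**
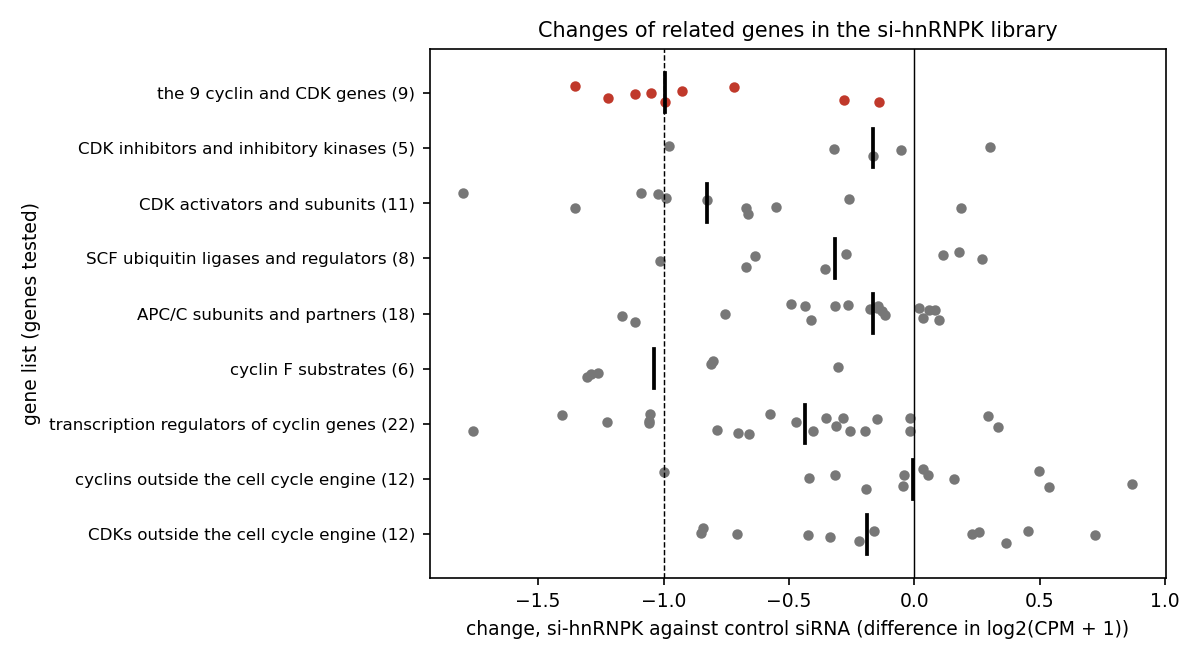
Change under si-hnRNPK, as the difference in log2(CPM + 1) from control siRNA, of each gene in the lists of related genes beside the 9 cyclin, CDK and CDC25A genes, with black bars at the list medians, a dashed line at -1 and the number of genes tested after each name. Activators and cyclin F substrates lie mostly below 0 (medians -0.83 and -1.04), and cyclins with other roles lie around 0 (median -0.004).

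The genes closest to the median pattern of the 9 were sought by the distance of their 3 changes from the medians of the 9. The search was among 8758 genes at 10 CPM or more in control. The 3 changes share the control library. The nearest were KIF22 (distance 0.038), a mitotic kinesin, the importin IPO8 (0.059), the spindle protein KNSTRN (0.066), FBXO5 (0.066) and DICER1 (0.068). Of the 9 genes themselves, CCNA2 (0.797) and CCNE1 (0.978) lay farthest from these medians, which the 9 genes themselves set. Of the 8758 genes, 2579 lay nearer than CCNA2, 4099 nearer than CCNE1, 1916 nearer than CDK2 and 1180 nearer than CDC25A. For CCNF and CCNE2 these counts were 504 and 485, and for CCNB2, CCNB1 and CDK1 they were 34, 6 and 1. The medians thus describe the latter genes more closely than the former.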

How the data were processed

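For every library the authors deposited a table of CPM values by Ensembl gene. The submitters' processing notes name hg19. The aligner, counter, annotation, strand setting and filters are not given in the sources used here. For genes with reads, 100% of CPM values were whole multiples of 1 read within 0.01 read, so reads per gene were recovered. The 197 to 393 genes per table at a placeholder below 1 read were set to 0. Depth was 54301152 to 70232674 reads. Changes were differences in log2(CPM + 1) for genes that reached 1 CPM in either library, with a threshold of 1. With 1 library per condition no test of conditions was made, and the differences between conditions may hold culture-to-culture spread. Intervals of pair differences are Wald intervals of read ratios. Genes were matched by identifier to GENCODE release 29 on GRCh38 and promoters by symbol to RefSeq GRCh38.p14. Coordinates are from these annotations, since the deposited tables hold none.

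The 9 genes and all lists, motifs, gene pairs and siRNA sites were chosen with earlier results of these data known. Of the pathway lists, genes past the threshold in any comparison and up to 2 with the highest control CPM that did not pass are named, as are siRNA targets and the 5 nearest genes. CCNK, PKMYT1, PMEL, INTS8, EXOSC9 and the marker genes were named after their values were seen. Alternatives were a pseudocount of 0.1, no filter or one of 5 CPM, a 1.5-fold threshold, median-of-ratios scaling, a geometric-mean reference and a binomial test. Scripts were tested on simulated data. Tables and intervals were computed with pandas 2.3.3, scipy 1.17.1, numpy 2.4.6 and statsmodels 0.14.6 in Python 3.11.15, and plots with matplotlib 3.10.9.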

Additional observations from a re-analysis of the deposited data

How the results depend on the processing

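No paired analysis was possible because each condition was 1 library, and for the same reason no replicate could be left out. With a 1.5-fold threshold, 7 of the 9 genes fell under si-hnRNPK, beside 2165 of all 13672 genes tested. Under si-PTBP1 1 of the 9 fell, beside 432 of 13855. Median-of-ratios scaling gave a median of -0.88 under si-hnRNPK, where 3 genes fell and CDK1 (-0.94) no longer passed. It gave a median of -0.32 and 1 fallen gene, CCNA2 (-1.03), under si-PTBP1. With a geometric-mean reference the medians were 0.42 in the si-lncRNA-LBCS-labelled library and 0.13 under si-PTBP1. In both of these comparisons the reference includes si-hnRNPK, where the 9 genes summed to 51.2% of control, which lowers the reference. Under si-hnRNPK, CCNB2 (-1.02) passed in place of CCNE2 (-0.99) with this setting. A pseudocount of 0.1 added CCNB2 to the fallen genes under si-hnRNPK, which made 5. The binomial test, no filter and a filter of 5 CPM could not change the counts of the 9 genes. Their lowest level was 15.2 CPM (828 reads, CCNE2 in si-hnRNPK), above both filters. At such read numbers a 2-fold change lies far beyond counting error. Of 27 changes of the 9 genes, 21 kept their sign under all 5 alternatives, of which the filters and the pseudocount could not alter a sign. With the geometric-mean reference 6 changed sign, all of them in the si-lncRNA-LBCS-labelled library or in si-PTBP1. Over all genes, the 537, 136 and 85 lower genes of the 3 comparisons became 995, 353 and 173 with the pseudocount of 0.1, and 2165, 774 and 432 with the 1.5-fold threshold. With median-of-ratios scaling they became 374, 133 and 132, and with the geometric-mean reference 358, 104 and 74. The causes of the shifts in these counts over all genes were not tested. At these depths 3 reads were 0.0427 to 0.0552 CPM, far under the level of each of the 9 genes.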
